A study of Mus musculus with 12 samples.

Results

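The mitochondrial carriers of the Slc25 family were followed in RNA sequencing of mouse heart. The members were taken as every gene of the expression table whose symbol is Slc25a followed by a number, which gave 47 of the 34714 genes listed. Of these, 37 were measured, meaning that they reached 1 FPKM in at least 4 libraries. FPKM is a read measure scaled by transcript length and library size; no source names the table's unit, and its values were taken as FPKM. Each of the 37 did so in 10 or 11 of the 11 libraries used, so none was measured through 1 group alone. The other 10 members are described at the end of the account of levels.

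The hearts came from 3 treatment groups of a study of heart damage under immune checkpoint therapy, which used mice with melanoma according to the series' design text. Libraries labelled aPD1_lef (n = 4) carry an antibody against the immune checkpoint receptor PD-1 and leflunomide, an immunosuppressant that inhibits the pyrimidine synthesis enzyme dihydroorotate dehydrogenase. Libraries labelled aPD1_veh (n = 4) carry the same antibody with what was read as the drug's vehicle, and libraries labelled IgG_lef (n = 3 used, of 4 labelled) carry a control immunoglobulin with leflunomide. The labels give neither strain, sex, age, doses and duration nor whether each library is a separate mouse, so p-values measure only the spread between these samples. No group with control immunoglobulin and vehicle was analysed here. The comparison of aPD1_lef with aPD1_veh therefore addresses the drug under the antibody and that of aPD1_lef with IgG_lef the antibody under the drug, while aPD1_veh and IgG_lef differ in antibody and drug together.

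Carriers of this family sit, with few exceptions, in the inner mitochondrial membrane, where they exchange nucleotides, phosphate, carboxylates, amino acids, acylcarnitines and cofactors between the cytosol and the matrix. Most are built from repeats of a pair of membrane-spanning helices and work by switching between a state open to the cytosol and a state open to the matrix. The heart depends on them heavily, because ATP made in the matrix leaves through the ADP/ATP carriers, phosphate enters through the phosphate carrier, long-chain fatty acids enter as acylcarnitines, and reducing equivalents from glycolysis enter through the malate-aspartate shuttle.

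One library stood apart from the rest before any comparison. Replicate 4 of aPD1_lef correlated with its group across genes at r = 0.91 to 0.95, whereas the other pairs of replicates correlated at 0.978 to 0.992 (genes are not independent replicates). It was the lowest of the 11 libraries in 23 of the 37 measured carriers, the highest in 4 and inside the range in 10. The values of each library summed to between 393494 (aPD1_lef replicate 4) and 413010 in aPD1_lef, between 441935 and 465511 in aPD1_veh and between 413628 and 440748 in IgG_lef. The number of reads behind them is unknown. The labelled tissue was checked by heart muscle markers: all 10 listed cardiomyocyte genes were measured, and their summed level was 12700 to 32700 FPKM in aPD1_lef, 33100 to 43800 in aPD1_veh and 33200 to 37800 in IgG_lef. The atrial light chain gene Myl7 exceeded 10 FPKM in aPD1_lef replicates 1 and 2 (32.5 and 43.0 FPKM) and in IgG_lef replicate 2 (266 FPKM), and lay at 1.78 FPKM or below in the other libraries.

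The ADP/ATP carriers Slc25a4 and Slc25a5 are close relatives whose counts could share reads, so the start of their coding sequences is shown, with the bases that differ between them in capitals (bases 1 to 120 from the start codon, reference transcripts of GRCm38).
Slc25a5: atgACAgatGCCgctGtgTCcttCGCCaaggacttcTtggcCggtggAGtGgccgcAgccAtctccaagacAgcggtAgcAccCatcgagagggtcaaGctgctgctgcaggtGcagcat
Slc25a4: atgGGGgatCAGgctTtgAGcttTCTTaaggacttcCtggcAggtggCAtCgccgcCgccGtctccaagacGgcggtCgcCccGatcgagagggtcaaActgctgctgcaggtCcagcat
In this stretch 26 bases differ. Over the whole reading frame of 897 bases each, 77.5% of bases were identical, and the longest identical run was 20 bases. The aspartate/glutamate carriers Slc25a13 and Slc25a12 were 70.5% identical over 2021 aligned bases, with a longest run of 21. Shared runs were therefore short in both pairs.

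In 1 comparison below 14 carriers were lower and 2 higher, and the family's promoters were searched for 5 short motifs on both strands. RefSeq windows (GRCm38.p6) from 250 bases before to 50 bases after a gene's start were at hand for 36 of the 47 members. The element of the oestrogen-related receptors, TCAAGGTCA, was in 0 of the 36, against 0.466% of 27025 genes with a window. The direct repeat of the PPAR receptors, AGGTCA given again after any 1 base, was also in 0 of 36, against 0.0481% of all genes. The site of nuclear respiratory factor 1, GCGCA and then GCGC after any 1 base, was in 2 members (5.56%, Slc25a3 and Slc25a31), against 5.19% of all genes, and the ETS site ACTTCCGG was in 1 member (2.78%, Slc25a20), against 4.31%. The TATA box letters TATAAA were in 2 members (5.56%, Slc25a18 and Slc25a21, both under the filter), against 15.7% of all genes. The median share of G and C was 59.3% in the members' windows and 52.7% in all windows. The part of this base composition in the motif shares was not tested. A match describes letters in a window and is no evidence of binding. The windows of the phosphate carrier and of the acylcarnitine carrier, both among the carriers with lower levels in aPD1_lef, are shown with the matched motif in capitals.
Slc25a3, GRCm38.p6 chr10:91123918-91124217, minus strand, nuclear respiratory factor 1 site in capitals: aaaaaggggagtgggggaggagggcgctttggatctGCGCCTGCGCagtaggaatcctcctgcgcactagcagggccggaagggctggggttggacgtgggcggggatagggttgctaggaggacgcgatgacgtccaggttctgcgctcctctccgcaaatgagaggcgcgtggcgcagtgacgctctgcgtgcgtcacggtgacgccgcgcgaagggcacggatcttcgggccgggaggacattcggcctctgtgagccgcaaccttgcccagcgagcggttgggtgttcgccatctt
Slc25a20, GRCm38.p6 chr9:108661886-108662185, plus strand, ETS site in capitals: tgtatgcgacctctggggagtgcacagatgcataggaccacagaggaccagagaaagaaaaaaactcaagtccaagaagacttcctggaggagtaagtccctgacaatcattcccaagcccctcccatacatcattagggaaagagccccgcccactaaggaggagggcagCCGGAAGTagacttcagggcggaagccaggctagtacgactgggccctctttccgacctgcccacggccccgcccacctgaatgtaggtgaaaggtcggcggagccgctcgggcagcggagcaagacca

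The family's total was dominated by a few carriers. The summed level of all 47 members was 2554 to 5034 FPKM in aPD1_lef, 6299 to 7559 in aPD1_veh and 5043 to 6143 in IgG_lef, so every aPD1_lef library lay below every library of the other groups. That sum made up 0.649% to 1.22% of all values in aPD1_lef, 1.43% to 1.62% in aPD1_veh and 1.22% to 1.40% in IgG_lef. Slc25a4 alone held 55.2% to 63.7% of it in aPD1_lef, 62.8% to 64.2% in aPD1_veh and 60.7% to 64.6% in IgG_lef. The 3 highest members together held 77.5% to 84.9%, 85.4% to 87.7% and 84.4% to 87.0% in aPD1_lef, aPD1_veh and IgG_lef. Levels of different genes are set beside each other on the assumption that the values are FPKM, which is scaled per length, and the ranking by level rests on it. The mean over 11 libraries was at least 50 FPKM in 9 members, 10 to under 50 in 11 and under 10 in 17.

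**Figure D1:**
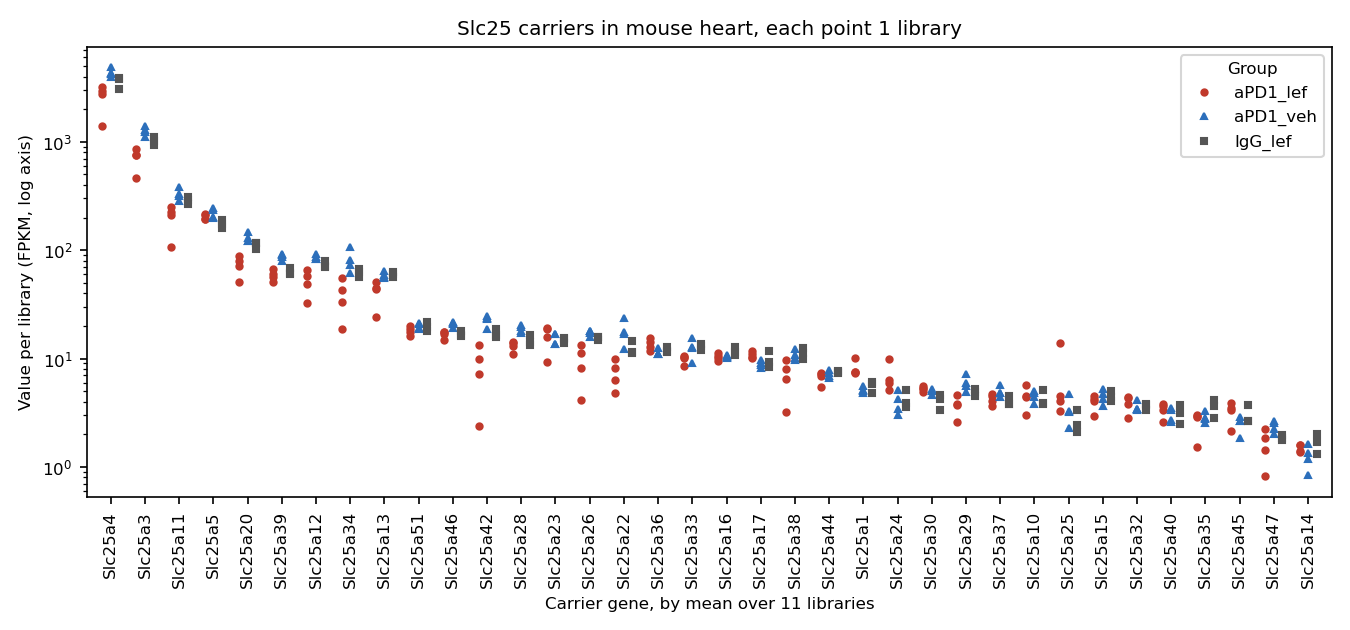
FPKM of the measured carriers reported here (log axis), ordered by their mean over 11 libraries, with 1 point for each library of aPD1_lef (circles), aPD1_veh (triangles) and IgG_lef (squares). Levels span from 4854 FPKM for Slc25a4 down to 0.820 FPKM for Slc25a47, and the lowest circle of many carriers is aPD1_lef replicate 4.

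The 10 members under the filter were Slc25a2, Slc25a18, Slc25a21, Slc25a27, Slc25a31, Slc25a41, Slc25a43, Slc25a48, Slc25a53 and Slc25a54. Slc25a27, an uncoupling protein relative known from the nervous system (Ucp4), came closest to being measured, with 0.275 to 0.830 FPKM in aPD1_lef, 0.369 to 0.968 in aPD1_veh and 0.734 to 1.12 in IgG_lef. The testis form of the ADP/ATP carrier, Slc25a31, had 0.171 to 0.267 FPKM in aPD1_lef, 0.0417 to 0.545 in aPD1_veh and 0 to 0.160 in IgG_lef. Slc25a48 and Slc25a54 were listed at 0 in all 11 libraries, and Slc25a41 in all but IgG_lef replicate 3.

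Under anti-PD-1, leflunomide libraries had lower levels of Slc25a4, Slc25a3, Slc25a11, Slc25a20 and other carriers, and higher levels of Slc25a1 and Slc25a24. Slc25a5, an abundant ADP/ATP carrier, did not pass, and the groups overlapped in Slc25a24. Of the 37 measured carriers, 14 were lower in aPD1_lef than in aPD1_veh (limma, Benjamini-Hochberg adjusted p under 0.05 over all 12005 measured genes), 2 were higher and 21 did not pass. Over all genes 14.3% were lower and 18.2% were higher. The same shares stand against the counts given below for groups of carriers and listed genes in this comparison. The median log2 change was -0.19 over the carriers and 0.04 over all genes. The groups did not overlap in 16 carriers (14 lower and 2 higher in aPD1_lef), against 36.1% of all genes. In whole heart, fewer muscle cells and less RNA per cell cannot be told apart. Without aPD1_lef replicate 4, 15 were lower and 3 higher. The count of higher carriers was the less stable of the 2: it was 4 after scaling every library to the same total or without the libraries with Myl7 above 10, and 1 with no filter or without aPD1_lef replicate 3, aPD1_veh replicate 2 or aPD1_veh replicate 4. The count of lower carriers was 9 without aPD1_veh replicate 2. Scaling to the same total moved the median log2 change of all genes to 0.17 and made 75.7% of all calls higher, against 56.0% without it, and 12 carriers were then lower; quantile normalization made 44.7% of calls higher, with 14 carriers lower and 2 higher.

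Most of the lower carriers were abundant ones. Of the 9 carriers with a mean of at least 50 FPKM, 8 fell and none rose, while 34.5% of all genes at that level were lower and 14.2% higher. Among the 11 carriers at 10 to under 50 FPKM, 5 fell, against 16.8% of all genes there. Of the 17 carriers under 10 FPKM, 1 fell and 2 rose, against 9.16% lower and 18.3% higher among all genes of that level. Slc25a5 was the exception among the highest carriers.

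**Figure D2:**
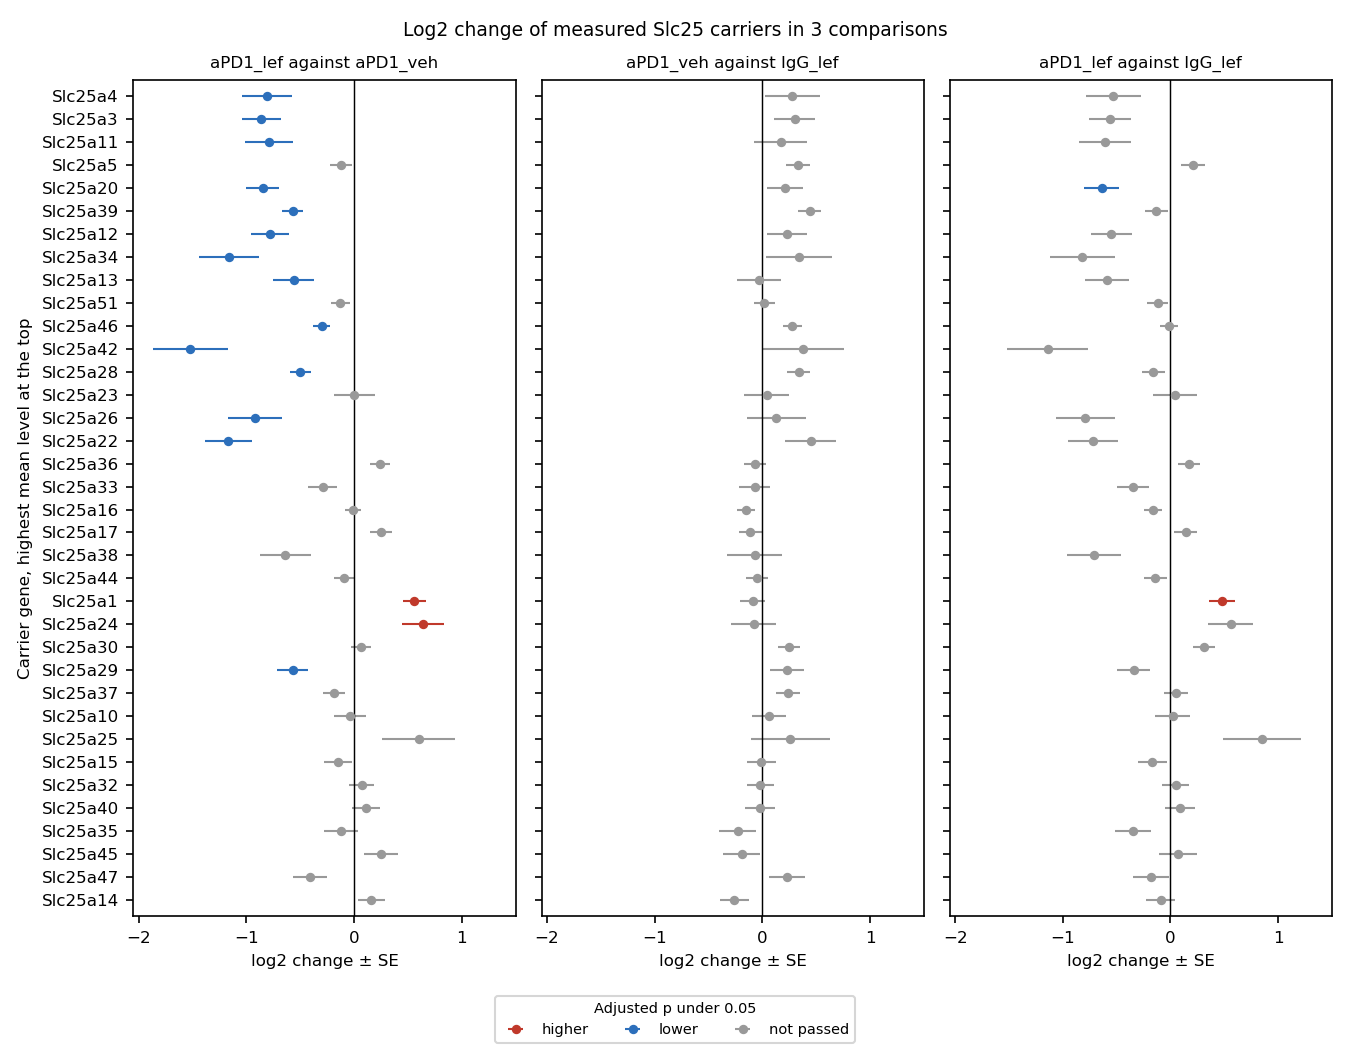
Log2 change (point) with its standard error (bar) of the measured carriers reported here in 3 comparisons, ordered by mean level, in red where higher and blue where lower at an adjusted p under 0.05. In aPD1_lef against aPD1_veh 14 carriers are blue and 2 red, in aPD1_veh against IgG_lef none is coloured, and in aPD1_lef against IgG_lef Slc25a20 is blue and Slc25a1 red.

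Among the carriers of adenine nucleotides and phosphate, 2 of 6 measured members fell, 1 rose and 3 did not pass. Over all genes the shares were 14.3% lower and 18.2% higher. Slc25a4 (chromosome 8, 46207168 to 46211062, GRCm38), the ADP/ATP carrier of heart and muscle, had 2941, 3174, 2764 and 1409 FPKM in aPD1_lef, 4188, 4275, 3989 and 4854 in aPD1_veh and 3758, 3909 and 3059 in IgG_lef. Every aPD1_lef library was below every aPD1_veh library, with replicate 4 far below the others of its group. It fell by 0.81 ± 0.235 (SE) on the log2 scale against aPD1_veh (adjusted p = 0.0241), and the mean was 0.594 of that in aPD1_veh, or 0.684 without aPD1_lef replicate 4. The adjusted p was 0.156 after quantile normalization, 0.0566 without aPD1_veh replicate 2 and 0.0688 without aPD1_veh replicate 4.

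Slc25a5 (chromosome X, 36795597 to 36798808), the ADP/ATP carrier of most other tissues, had 192, 193, 215 and 210 FPKM in aPD1_lef, 235, 246, 200 and 200 in aPD1_veh and 161, 173 and 190 in IgG_lef. Here aPD1_lef and aPD1_veh overlapped, and replicate 4 of aPD1_lef did not stand apart. The log2 difference was -0.12 ± 0.102 (adjusted p = 0.391). Slc25a3 (chromosome 10, 91116574 to 91124046), the phosphate carrier, had 753, 850, 754 and 462 FPKM in aPD1_lef, 1237, 1273, 1102 and 1396 in aPD1_veh and 1013, 1109 and 931 in IgG_lef. All 4 aPD1_lef libraries lay below all libraries of the other groups. It fell by 0.86 ± 0.18 against aPD1_veh (adjusted p = 0.00656).

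The calcium-regulated carriers that exchange ATP-Mg for phosphate did not move alike. Slc25a24 had 5.89, 5.13, 6.30 and 9.90 FPKM in aPD1_lef, 4.23, 3.42, 5.14 and 2.99 in aPD1_veh and 3.58, 3.91 and 5.12 in IgG_lef. Its aPD1_lef libraries were higher apart from replicate 2, which lay just under the highest aPD1_veh library. It rose by 0.64 ± 0.192 (adjusted p = 0.0273), with a ratio of means of 1.73, or 1.46 without aPD1_lef replicate 4. That call was lost with no filter (adjusted p = 0.0505) and without aPD1_lef replicate 3, aPD1_veh replicate 2 or aPD1_veh replicate 4 (0.0531 to 0.081). Slc25a25 had 4.04, 3.31, 4.55 and 13.8 FPKM in aPD1_lef, 4.74, 3.25, 3.24 and 2.27 in aPD1_veh and 2.10, 3.34 and 2.44 in IgG_lef. Only replicate 4 of aPD1_lef was outside the range of aPD1_veh on the high side, and the difference did not pass (adjusted p = 0.196, or 0.0481 without the libraries with Myl7 above 10). The ratio of means was 1.90 with that library and 1.18 without it. Slc25a23 averaged 15.8 ± 4.59 FPKM in aPD1_lef and 15.2 ± 1.90 in aPD1_veh (SD, n = 4 each), with a log2 difference of 0.00 (adjusted p = 0.986).

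**Figure D3:**
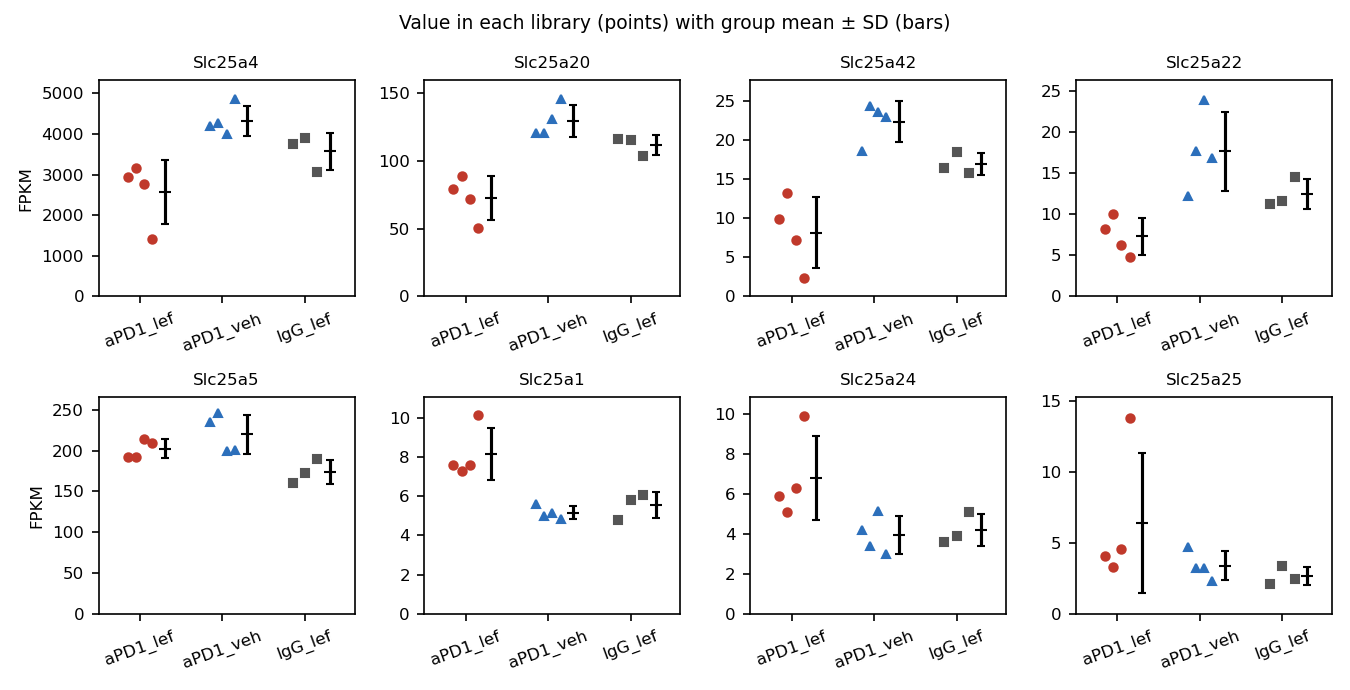
FPKM in each library (points, linear axes from 0) of 8 carriers in aPD1_lef (circles), aPD1_veh (triangles) and IgG_lef (squares), with group means and SDs as bars. Slc25a4, Slc25a20, Slc25a42 and Slc25a22 are lower in every aPD1_lef library than in every aPD1_veh library, Slc25a5 overlaps, Slc25a1 is higher in every aPD1_lef library, and Slc25a24 and Slc25a25 are highest in aPD1_lef replicate 4.

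The balance of the ADP/ATP carriers was compared within libraries, as the ratio of Slc25a5 to Slc25a4. The ratio was 0.0653, 0.0607, 0.0776 and 0.149 in aPD1_lef, 0.0562, 0.0575, 0.05 and 0.0412 in aPD1_veh and 0.0427, 0.0442 and 0.0620 in IgG_lef. All aPD1_lef ratios were above all aPD1_veh ratios, and replicate 4 of aPD1_lef was the highest by a wide margin. The geometric mean was 0.0822 in aPD1_lef, 0.0508 in aPD1_veh and 0.0489 in IgG_lef. The 1.62-fold difference between aPD1_lef and aPD1_veh had the smallest p that an exact two-sided permutation test of 4 against 4 samples can give (p = 0.0286), which was 0.0571 after adjustment over 6 ratio tests and so did not pass. Its log2 value was 0.69, or 0.41 without aPD1_lef replicate 4.

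Of the 4 measured carriers of carboxylates and acylcarnitines, 2 fell, 1 rose and 1 did not pass, against 14.3% of all genes lower and 18.2% higher. Slc25a20 (chromosome 9, 108662136 to 108684642), which brings acylcarnitines into the matrix for fatty acid oxidation, had 79.1, 88.8, 72.1 and 50.5 FPKM in aPD1_lef, 121, 121, 131 and 146 in aPD1_veh and 116, 116 and 104 in IgG_lef. It was lower in all aPD1_lef libraries than in any other library. It fell by 0.85 ± 0.154 (adjusted p = 0.00339) against aPD1_veh. Of the 5 enzymes and transporters of the carnitine shuttle, 4 fell as well (median log2 change -0.89), among them Crat, carnitine acetyltransferase, by 1.02 (adjusted p = 0.00435), while Cpt1a did not pass (log2 difference -0.00, adjusted p = 0.997).

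Slc25a11 (chromosome 11, 70644019 to 70647531), the 2-oxoglutarate/malate carrier, had 224, 250, 211 and 108 FPKM in aPD1_lef, 330, 319, 287 and 379 in aPD1_veh and 292, 312 and 267 in IgG_lef. The aPD1_lef libraries were below all others. It fell by 0.79 ± 0.226 (adjusted p = 0.0237), a call lost after quantile normalization (0.0515) and without aPD1_veh replicates 2 or 4 (0.053 and 0.0689). The gene overlaps the oppositely oriented Rnf167, which averaged 21.2 FPKM in aPD1_lef, 27.0 in aPD1_veh and 26.7 in IgG_lef, and without a stated strand setting their reads cannot be told apart in the overlap.

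Slc25a1 (chromosome 16, 17925211 to 17928219), the citrate carrier that supplies acetyl groups for lipid synthesis in the cytosol, ran the other way. It had 7.58, 7.29, 7.57 and 10.2 FPKM in aPD1_lef, 5.61, 5.01, 5.14 and 4.86 in aPD1_veh and 4.79, 5.80 and 6.05 in IgG_lef. Every aPD1_lef library was above every library of the other groups. It rose by 0.56 ± 0.11 (adjusted p = 0.00488) against aPD1_veh, with a ratio of means of 1.58, or 1.45 without aPD1_lef replicate 4. The dicarboxylate carrier Slc25a10 averaged 4.41 ± 1.08 FPKM in aPD1_lef and 4.50 ± 0.499 in aPD1_veh (SD, n = 4 each), a difference that did not pass (adjusted p = 0.849).

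Among the carriers of amino acids, 4 of 7 fell and 3 did not pass, against 14.3% of all genes lower. None had a positive log2 difference. Slc25a12 (chromosome 2, 71274270 to 71367781), the aspartate/glutamate carrier of heart, muscle and brain, had 57.3, 65.8, 49.0 and 32.9 FPKM in aPD1_lef, 83.3, 86.7, 82.0 and 93.1 in aPD1_veh and 69.8, 79.2 and 71.2 in IgG_lef. No aPD1_lef library reached the others. It fell by 0.78 ± 0.174 (adjusted p = 0.00868). Slc25a13 (chromosome 6, 6041218 to 6217304), its relative known best from liver, had 44.2, 50.4, 45.2 and 24.1 FPKM in aPD1_lef, 55.6, 59.1, 56.0 and 64.0 in aPD1_veh and 60.3, 62.5 and 56.7 in IgG_lef. It also lay below the other groups in every aPD1_lef library. It fell by 0.56 ± 0.189 (adjusted p = 0.0439), and the test was no longer passed under 14 of 21 alternatives, with an adjusted p of up to 0.108 when 1 library was left out.

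The ratio of Slc25a13 to Slc25a12 was 0.772, 0.766, 0.923 and 0.733 in aPD1_lef, 0.667, 0.682, 0.683 and 0.687 in aPD1_veh and 0.864, 0.789 and 0.796 in IgG_lef. The aPD1_veh libraries were the lowest and lay close together. The geometric mean was 0.795 in aPD1_lef, 0.680 in aPD1_veh and 0.816 in IgG_lef. In exact two-sided permutation tests p was 0.0286 for aPD1_lef against aPD1_veh (1.17-fold) and for aPD1_veh against IgG_lef (0.833-fold), and 0.0571 for each after adjustment over 6 tests. Neither passed. The 4 enzymes of the malate-aspartate shuttle, in which Slc25a11, Slc25a12 and Slc25a13 work, all fell (median log2 change -0.70). Got1, the cytosolic aspartate aminotransferase, fell by 0.96 (adjusted p = 0.00021).

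**Figure D4:**
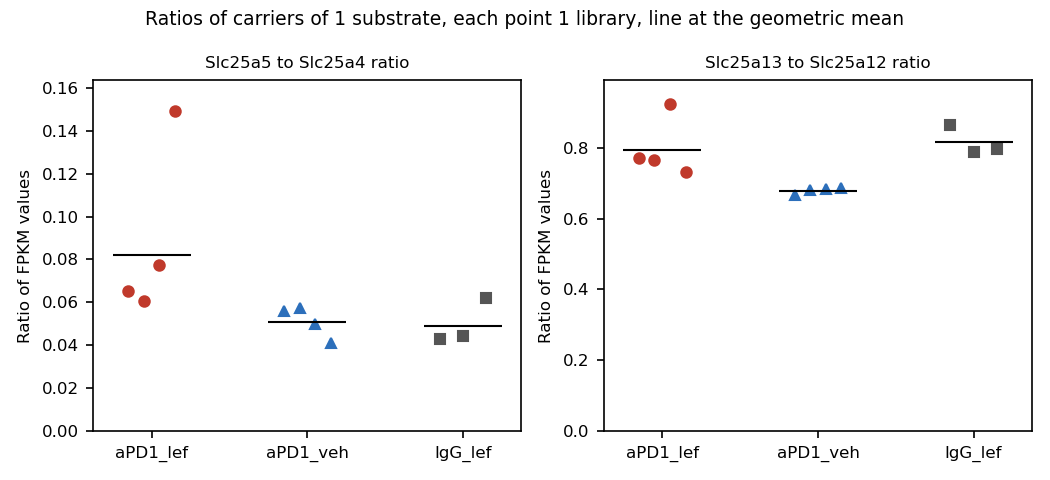
Ratio of FPKM values of Slc25a5 to Slc25a4 (left) and of Slc25a13 to Slc25a12 (right) in each library, with a line at the geometric mean of each group. On the left the aPD1_lef points all lie above the aPD1_veh points, with replicate 4 at 0.149, and on the right the aPD1_veh points, at 0.667 to 0.687, lie below both other groups.

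Slc25a22 (chromosome 7, 141429749 to 141437874), a glutamate carrier, had 8.17, 9.96, 6.31 and 4.84 FPKM in aPD1_lef, 12.2, 17.6, 23.9 and 16.8 in aPD1_veh and 11.2, 11.6 and 14.5 in IgG_lef. Its highest aPD1_lef library lay under the lowest library of both other groups. It fell by 1.17 ± 0.218 (adjusted p = 0.00413), the second largest decrease of the family after Slc25a42. Slc25a29, a carrier of basic amino acids, fell by 0.57 (adjusted p = 0.0137) and averaged 3.69 ± 0.847 FPKM in aPD1_lef and 5.91 ± 0.942 in aPD1_veh (SD, n = 4 each). The ornithine carrier Slc25a15 (log2 difference -0.15, adjusted p = 0.373) and the branched-chain amino acid carrier Slc25a44 (-0.09, adjusted p = 0.498) did not pass. Slc25a38, which supplies glycine for haem synthesis, averaged 6.85 ± 2.78 FPKM in aPD1_lef and 10.6 ± 1.09 in aPD1_veh (SD, n = 4 each) and lay just outside the threshold (adjusted p = 0.0585). It passed, as lower, under 6 of 21 alternatives, which include leaving out aPD1_lef replicate 4 (0.045).

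Of the 9 carriers of nucleotides and cofactors, 2 fell and 7 did not pass, against 14.3% of all genes lower. So few calls do not set this group apart from all genes. Slc25a42 (chromosome 8, 70184340 to 70212281), which imports coenzyme A, had 9.91, 13.2, 7.21 and 2.38 FPKM in aPD1_lef, 18.6, 24.4, 23.7 and 22.9 in aPD1_veh and 16.5, 18.5 and 15.8 in IgG_lef. All aPD1_lef libraries were below all others, and replicate 4 was the lowest by far. It fell by 1.52 ± 0.347 (adjusted p = 0.00962), the largest decrease in the family, with a mean at 0.365 of that in aPD1_veh, or 0.451 without aPD1_lef replicate 4. Slc25a26 (chromosome 6, 94500295 to 94604659), which imports S-adenosylmethionine, had 11.3, 13.4, 8.15 and 4.13 FPKM in aPD1_lef, 17.8, 17.8, 15.8 and 17.0 in aPD1_veh and 14.9, 15.9 and 15.9 in IgG_lef. These aPD1_lef values too lay under all others. It fell by 0.92 ± 0.253 (adjusted p = 0.0199, or 0.0511 without aPD1_veh replicate 2). The gene overlaps Lrig1 on the other strand, which averaged 9.51 FPKM in aPD1_lef, 9.33 in aPD1_veh and 9.23 in IgG_lef.

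The pyrimidine nucleotide carriers, which feed nucleic acid synthesis in the matrix, did not pass in either direction, though both did under at least 1 alternative. Slc25a33 had 10.0, 10.6, 8.61 and 10.2 FPKM in aPD1_lef, 9.03, 12.5, 15.5 and 12.7 in aPD1_veh and 12.0, 13.6 and 12.9 in IgG_lef. Its aPD1_lef values lay within the wide range of aPD1_veh or just under it, and the log2 difference was -0.29 ± 0.135 (adjusted p = 0.125). It passed as lower under 1 of 21 alternatives, without aPD1_veh replicate 1 (0.0207). Slc25a36 had 12.9, 11.7, 15.6 and 14.2 FPKM in aPD1_lef, 11.1, 10.9, 10.9 and 12.5 in aPD1_veh and 11.7, 11.4 and 12.8 in IgG_lef. The groups overlapped through aPD1_lef replicate 2 and aPD1_veh replicate 4, and the log2 difference was 0.24 ± 0.0937 (adjusted p = 0.0748). It passed as higher under 3 of 21 alternatives: with every library scaled to the same total (0.014), without the libraries with Myl7 above 10 (0.0307) and without aPD1_lef replicate 2 (0.0296). Slc25a51, the NAD carrier, had 18.5, 20.02, 17.5 and 16.3 FPKM in aPD1_lef, 18.6, 21.1, 19.2 and 20.8 in aPD1_veh and 18.0, 21.5 and 19.5 in IgG_lef. It overlapped in all groups (log2 difference -0.13, adjusted p = 0.264).

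Other cofactor carriers did not pass either. Slc25a16, linked to coenzyme A, averaged 10.3 ± 0.765 FPKM in aPD1_lef and 10.4 ± 0.284 in aPD1_veh (SD, n = 4 each; adjusted p = 0.918). Slc25a17, a peroxisomal carrier of coenzyme A, FAD and NAD, was higher in every aPD1_lef library than in any aPD1_veh library, at 10.2 to 11.7 FPKM against 8.21 to 9.74 FPKM, but did not pass (adjusted p = 0.08). It did with every library scaled to the same total (0.0198) and without IgG_lef replicate 3 (0.0407). The folate carrier Slc25a32 had a log2 difference of 0.07 (adjusted p = 0.659).

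Of the 4 carriers of iron and glutathione, 2 fell and 2 did not pass, against 14.3% of all genes lower. Slc25a39 (chromosome 11, 102402969 to 102408675), the glutathione carrier, had 56.3, 66.7, 60.2 and 50.7 FPKM in aPD1_lef, 89.5, 87.0, 79.1 and 91.5 in aPD1_veh and 61.9, 69.1 and 60.5 in IgG_lef. The aPD1_veh libraries stood above both other groups, which overlapped. It fell by 0.57 ± 0.0981 against aPD1_veh (adjusted p = 0.00278), while its relative Slc25a40 had a log2 difference of 0.11 (adjusted p = 0.541). Slc25a28, mitoferrin 2, the iron carrier of most tissues, averaged 13.0 ± 1.40 FPKM in aPD1_lef, 18.8 ± 1.41 in aPD1_veh (SD, n = 4 each) and 14.6 ± 1.53 in IgG_lef (SD, n = 3). It fell by 0.50 ± 0.0992 against aPD1_veh (adjusted p = 0.005). Slc25a37, mitoferrin 1, the iron carrier of developing red cells, had 4.68, 4.08, 3.62 and 4.50 FPKM in aPD1_lef, 4.79, 4.82, 5.73 and 4.40 in aPD1_veh and 3.77, 4.52 and 3.78 in IgG_lef. The groups overlapped (log2 difference -0.19, adjusted p = 0.183, or 0.0413 after quantile normalization).

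Red cell transcripts differed between the same libraries. Of the 8 listed erythroid genes 6 were measured, and all 6 were lower in aPD1_lef than in aPD1_veh (median log2 change -1.61). Their summed level was 3600 to 4200 FPKM in aPD1_lef, 7820 to 12900 in aPD1_veh and 2440 to 11900 in IgG_lef. The defining marker Slc4a1, an anion exchanger of the red cell membrane, was at 0.0603 to 0.177 FPKM in aPD1_lef, 0.333 to 1.19 in aPD1_veh and 0.118 to 0.551 in IgG_lef. The part of these transcripts in the levels of Slc25a37, Slc25a38, Slc25a28 and Slc25a39 was not tested. Of 12 listed genes of haem synthesis and iron use, 6 fell and 6 did not pass (median log2 change -0.33), with Iscu, the scaffold of iron-sulphur cluster assembly, falling by 0.55 (adjusted p = 0.00624).

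The outer membrane member Slc25a46, which shapes mitochondria, had 16.8, 17.7, 17.4 and 14.9 FPKM in aPD1_lef, 20.7, 21.5, 21.3 and 19.3 in aPD1_veh and 16.6, 16.1 and 17.8 in IgG_lef. The aPD1_veh libraries were above all others. It fell by 0.30 ± 0.0779 (adjusted p = 0.0171), the smallest decrease that passed, and the call was lost with all libraries scaled to the same total (0.16) and without aPD1_veh replicate 2 (0.0526). Slc25a34 (chromosome 4, 141618819 to 141623891), with no substrate assigned, had 43.1, 55.0, 33.4 and 18.6 FPKM in aPD1_lef, 61.5, 73.1, 107 and 81.3 in aPD1_veh and 62.7, 67.3 and 57.0 in IgG_lef. No aPD1_lef library reached either other group. It fell by 1.16 ± 0.281 (adjusted p = 0.0122). The other measured members without an assigned substrate, Slc25a35, Slc25a45 and Slc25a47, did not pass (log2 differences -0.12, 0.25 and -0.41). Slc25a47 passed as lower under 4 of 21 alternatives, and Slc25a45 as higher under 1, without aPD1_lef replicate 4 (0.041). Slc25a35 overlaps Rangrf on the other strand, which averaged 41.0 FPKM in aPD1_lef, 63.4 in aPD1_veh and 49.2 in IgG_lef, above its own level. The relatives of the uncoupling proteins were also not called. Slc25a30 had 5.30, 5.25, 4.90 and 5.53 FPKM in aPD1_lef, 5.07, 5.02, 5.22 and 4.62 in aPD1_veh and 3.32, 4.64 and 4.21 in IgG_lef. In this gene aPD1_lef and aPD1_veh overlapped (log2 difference 0.06, adjusted p = 0.631), and Slc25a14 averaged 1.49 ± 0.125 FPKM in aPD1_lef and 1.24 ± 0.326 in aPD1_veh (SD, n = 4 each; adjusted p = 0.329).

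Genes that work with the carriers, or mark the same compartment, were listed for comparison. Of 15 genes of mitochondrial content (respiratory chain, citrate cycle and matrix proteins) 14 were lower in aPD1_lef than in aPD1_veh and 1, Tfam, did not pass, with a median log2 change of -0.72. These are nuclear genes, and no gene with the mt- prefix of mitochondrially encoded genes was present in the data. Their summed level was 5530 to 9940 FPKM in aPD1_lef, 12500 to 15100 in aPD1_veh and 10900 to 12500 in IgG_lef. For every 100 FPKM of that sum the Slc25 family had 46.2 to 53.4 FPKM in aPD1_lef, 48.8 to 53.2 in aPD1_veh and 46.5 to 49.2 in IgG_lef, so that on this scale the ranges overlapped. For every 100 FPKM of the cardiomyocyte sum it had 15.4 to 20.1 FPKM in aPD1_lef, 17.0 to 19.0 in aPD1_veh and 15.2 to 16.3 in IgG_lef. The family sum was mostly Slc25a4 (55.2% to 63.7% in aPD1_lef, 62.8% to 64.2% in aPD1_veh and 60.7% to 64.6% in IgG_lef). Both ratios therefore mainly follow that gene and not the family member by member. The median log2 change against aPD1_veh was -0.19 over the carriers and -0.72 over the content genes, but the 2 sets differ in level. All content genes except Tfam were above 50 FPKM in every library. Over the 9 carriers with a mean of at least 50 FPKM the median was -0.79. It was -0.30 over the 11 at 10 to under 50 FPKM and 0.06 over the 17 under 10 FPKM.

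Other transport genes of the mitochondrion were called in both directions. Of 23 listed, 7 fell (30.4%), 4 rose (17.4%) and 12 did not pass (median log2 change -0.26). Over all genes 14.3% fell and 18.2% rose, so the share that rose was near that of all genes. Vdac3, an outer membrane channel, fell by 0.60 (adjusted p = 0.00293), and Vdac1 fell by 0.56 (adjusted p = 0.00937). Sfxn3, a sideroflexin of the inner membrane, rose by 0.66 (adjusted p = 0.00677), and Sfxn5 fell by 0.41 (adjusted p = 0.00848). Of 13 genes that import carriers into the mitochondrion, 3 fell (23.1%) and 10 did not pass (median log2 change -0.17). The 3 were Timm29, Timm8b and Timm10.

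The carrier superfamily has members with other symbols, and of the 5 listed 4 were measured. Ucp3, the uncoupling protein of muscle, had 4.18, 12.0, 2.66 and 3.76 FPKM in aPD1_lef, 10.4, 13.4, 64.2 and 32.4 in aPD1_veh and 10.7, 11.2 and 14.6 in IgG_lef. The groups overlapped through aPD1_lef replicate 2, and replicates 3 and 4 of aPD1_veh were far above the rest. It fell by 2.06 ± 0.53 against aPD1_veh (adjusted p = 0.0156). Mtch1, an outer membrane relative of the carriers, had 112, 107, 114 and 112 FPKM in aPD1_lef, 85.0, 77.6, 76.5 and 90.9 in aPD1_veh and 71.5, 89.5 and 74.6 in IgG_lef. It was higher in all aPD1_lef libraries than in any other and rose by 0.43 ± 0.0939 (adjusted p = 0.0076). Mtch2 (log2 difference -0.26, adjusted p = 0.0521) and Ucp2 (0.25, adjusted p = 0.628) did not pass, and Ucp1, the uncoupling protein of brown fat, was at or under 0.0684 FPKM in every library.

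Markers of other cell types moved between the same groups. The summed level of 10 fibroblast genes was 1950 to 2590 FPKM in aPD1_lef, 947 to 1270 in aPD1_veh and 1360 to 1770 in IgG_lef, and 8 of the 10 rose in aPD1_lef against aPD1_veh. Of 8 measured proliferation genes 7 rose, against 18.2% of all genes. Among the 8, Mki67 and Tyms reached 1 FPKM in no aPD1_veh library, so they passed the filter through groups where they were high. The count of 7 is therefore partly shaped by the filter. Of 10 macrophage genes 1 rose and 9 did not pass. Of 8 endothelial genes 0 were called (1, Kdr, had an unadjusted p under 0.05). Of the 10 cardiomyocyte genes 3 fell (Tnni3, Pln and Ryr2) and 7 did not pass, with a median log2 change of -0.60. Of the atrial genes 1 rose, 1 fell and 3 did not pass. The 1 that rose was Nppa, at 2071 to 5183 FPKM in aPD1_lef and 27.0 to 596 in aPD1_veh. It was high also in aPD1_lef replicates 3 and 4 (5183 and 4866 FPKM), where Myl7 was at 0.131 and 0.164 FPKM. Among adipocyte genes only Fabp4 and Cidea were measured: Fabp4, which endothelial cells also express, fell and Cidea did not pass, and the defining markers Adipoq and Plin1 were at or under 0.697 FPKM in every library. The part of any of these in the carriers' levels was not tested.

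No carrier passed between aPD1_veh and IgG_lef. With limma 0 of 37 were higher and 0 lower at an adjusted p under 0.05, against 0.242% of all genes higher and 0.925% lower. Of all calls 20.7% were higher, or 9.15% with every library scaled to the same total. At an unadjusted p under 0.05 there were 5 carriers, all higher in aPD1_veh. The median log2 difference was 0.06 over the carriers and 0.01 over all genes. The groups did not overlap in 10 carriers (9 higher and 1, Slc25a16, lower in aPD1_veh), against 19.0% of all genes.

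The 5 carriers nearest to a call were those of glutathione, iron, mitochondrial shape, ATP and an uncoupling protein relative. Slc25a39 averaged 86.8 ± 5.43 FPKM in aPD1_veh (SD, n = 4) and 63.8 ± 4.62 in IgG_lef (SD, n = 3), a log2 difference of 0.44 ± 0.106 (adjusted p = 0.0914), and lay above IgG_lef in every aPD1_veh library. Slc25a46 differed by 0.28 (adjusted p = 0.185), Slc25a28 by 0.34 (adjusted p = 0.215), Slc25a5 by 0.33 (adjusted p = 0.243) and Slc25a30 by 0.25 (adjusted p = 0.366). Without aPD1_lef replicate 4, which takes part only in the estimate of the spread, Slc25a39 (adjusted p = 0.0185) and Slc25a46 (adjusted p = 0.0449) passed. The most abundant carriers differed by 0.28 ± 0.254 for Slc25a4 (adjusted p = 0.75) and 0.30 ± 0.194 for Slc25a3 (adjusted p = 0.625).

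In the lists around the carriers few genes passed in this comparison. Got1 was higher in aPD1_veh, at 539.7 ± 33.0 FPKM (SD, n = 4) against 350.1 ± 26.5 in IgG_lef (SD, n = 3), a rise of 0.62 ± 0.108 (adjusted p = 0.0219). None of the 15 mitochondrial content genes passed with limma (0 at an unadjusted p under 0.05), and none of the 23 other transport genes did (3 at an unadjusted p under 0.05). Lum among the fibroblast genes and Fcgr1 among the macrophage genes were lower in aPD1_veh. Over all genes 140 were called in this comparison, and 3 without IgG_lef replicate 3.

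Under leflunomide, 2 of the 37 carriers were called between anti-PD-1 and IgG libraries. These were 2.7% lower and 2.7% higher, near or below the shares over all genes given below. Slc25a20 was lower in aPD1_lef, at 72.6 ± 16.3 FPKM (SD, n = 4) against 111.8 ± 7.17 in IgG_lef (SD, n = 3): it fell by 0.64 ± 0.166 (adjusted p = 0.0446). Slc25a1 was higher in aPD1_lef, at 8.15 ± 1.35 FPKM (SD, n = 4) against 5.55 ± 0.665 in IgG_lef (SD, n = 3): it rose by 0.48 ± 0.119 (adjusted p = 0.0408). Over all genes 2.01% were lower and 5.15% higher, so that 71.9% of calls were higher, or 54.8% after quantile normalization and 54.9% after median-ratio scaling. These 2 calls lay near the threshold and each was lost under 12 of 21 alternatives, with adjusted p of up to 0.187 for Slc25a20 and 0.188 for Slc25a1 when 1 library was left out.

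The other carriers were not called in this comparison. At an unadjusted p under 0.05 there were 16 carriers, 12 lower and 4 higher in aPD1_lef, and the median log2 difference was -0.16 over the carriers and 0.03 over all genes. The groups did not overlap in 16 carriers (12 lower and 4 higher in aPD1_lef), against 26.7% of all genes. Slc25a42 had the largest negative difference, at -1.14 ± 0.375 (adjusted p = 0.0782), followed by Slc25a34 at -0.82 ± 0.303 (adjusted p = 0.105) and Slc25a26 at -0.79 ± 0.273 (adjusted p = 0.0874). Slc25a25 had the largest positive one, at 0.85 ± 0.366 (adjusted p = 0.146), with a ratio of means of 2.44, or 1.51 without aPD1_lef replicate 4. Slc25a39 and Slc25a28, which fell against aPD1_veh, differed from IgG_lef by -0.13 (adjusted p = 0.435) and -0.16 (adjusted p = 0.321), and Slc25a46 by -0.01 (adjusted p = 0.941).

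The number of carriers called here depended on single libraries. Without aPD1_lef replicate 4 there were 5 lower, and without aPD1_lef replicate 2 there were 9 lower, while leaving out aPD1_lef replicate 1 or 3, or any 1 library of the other groups, left 0. Among the listed genes, Sdha (a fall of 0.77, adjusted p = 0.0484) and Ndufs1 (a fall of 0.80, adjusted p = 0.0408) were lower in aPD1_lef than in IgG_lef, and Mtch1 (a rise of 0.51, adjusted p = 0.0241) and Sfxn3 (a rise of 0.75, adjusted p = 0.0244) were higher. None of these calls held in a fit of only the 2 groups compared. Over all genes 859 were called in this comparison, and 2 without IgG_lef replicate 1.

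Each pair of comparisons shares a group, so their agreement is not independent. Set side by side as group means, 16 of the 37 carriers had aPD1_lef lowest, IgG_lef in between and aPD1_veh highest. Another 7 had aPD1_lef lowest and IgG_lef highest, and 7 had aPD1_veh lowest, IgG_lef in between and aPD1_lef highest. The other 7 were spread over the remaining orders, with 3, 3 and 1 members. Neighbours in these orders often did not differ beyond their spread, as the calls above show.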

How the data were processed

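RNA sequencing values of 34714 genes came from 1 table with 12 value columns. The names of 11 columns stand in sample labels, and these were used. The name of 1 column does not, and it was left out, so no values of the fourth IgG_lef sample were analysed here. Per the labels' protocols, TRIzol was used for total RNA and a NEBNext Ultra kit for the libraries. The submitters' processing notes name HISAT2, DESeq2 and mm10 but give them no roles, and no source used here states the strand setting. No source states the unit either. The authors' deposited values are not whole and differ in their totals, and were taken as FPKM. Whole reads were not recovered. At the best of many trial steps, 12.5% to 14.5% of low values lay within 0.05 of a whole multiple. Chance gives 10% for 1 fixed step, which is not the chance for the best of many. Depth is thus unknown and no counting interval is given.

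Members and gene lists were chosen with earlier results of these data known. The planned test depended on the unit: with no counts, limma 3.58.1 (trend, robust, statmod 1.5.0, R 4.3.3) was fitted to log2(value + 1) of the 12005 genes at 1 or more in at least 4 libraries, as 1 model of 3 groups and 11 libraries. Log2 changes understate those of low genes. P-values were adjusted by Benjamini-Hochberg over all 12005 genes, with a threshold of 0.05. Ratios were tested by exact permutation over samples, adjusted over 6 tests. Named genes are every member, the members fixed by name or by the size of their change with values in each library, and up to 4 genes of each list. The values of 1 measured member and of some listed genes are not reported here, though counts include them. A gene named beside these (Timm8b, Timm10, Cpt1a, Tfam, Kdr, Cidea, Mki67, Tyms and Slc4a1) was chosen after its values were seen, or is a defining marker. Promoters are from RefSeq (GRCm38.p6), and reading frames are the longest from start to stop codon in the GENCODE transcripts. Figures were drawn with matplotlib 3.10.9, and tables were made with SciPy 1.17.1, NumPy 2.4.6 and pandas 2.3.3 under Python 3.11.15. Of the 37 measured members, 18 overlap another annotated gene, 6 of them a protein-coding gene on the opposite strand.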

Additional observations from a re-analysis of the deposited data

Results flagged for a closer look

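In 5 of 74 groups of 4 libraries a library lay further from the others than Dixon's test allows at its 95% level, and chance gives about 1 in 20. In 3 of them the library was aPD1_lef replicate 4. Slc25a25 was at 13.8 FPKM there, with the next library at 4.55 FPKM. Slc25a1 was at 10.2 FPKM, with the next at 7.58 FPKM, and Slc25a35 was at 1.54 FPKM, with the next at 2.86 FPKM. In aPD1_veh, Slc25a36 was at 12.5 FPKM in replicate 4 (next 11.1 FPKM) and Slc25a32 at 4.10 FPKM in replicate 3 (next 3.45 FPKM). The cause of these values was not tested.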

How the results depend on the processing

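The results were recomputed with each library left out, a replicate block, no robust weights, no trend in limma, no filter, a pseudocount of 0.1, quantile normalization, 1 total for all libraries, median-ratio scaling, a fit of only the groups compared, and leaving out the libraries with Myl7 above 10. No called carrier changed sign. In aPD1_lef against aPD1_veh 10 of 16 calls held under all 21. The count of higher carriers (2) was 4 with 1 total or without the Myl7 libraries, 1 with no filter and 1 to 3 with a library left out. The count of lower carriers (14) was then 9 to 16 and that of all genes (3892) 2379 to 4264. With 1 total, all calls split into 3480 higher and 1115 lower, against 2181 and 1711. In aPD1_veh against IgG_lef, genes called (140) were 92 with no filter, 389 in a fit of only these groups and 3 to 482 with a library left out. Carriers called higher (0) were 1 in the fit of only these groups and 0 to 2 with a library left out. In aPD1_lef against IgG_lef, genes called (859) were 277 with no filter, 0 in a fit of only these groups, 2081 without the Myl7 libraries and 2 to 2276 with a library left out. Lower carriers (1) were 2 after quantile normalization, 0 with no filter or in the fit of only these groups, 7 without the Myl7 libraries and 0 to 9 with a library left out. Higher carriers (1) were 0, 0, 2 and 0 to 1 under the last 4 of these. Correlations of same-numbered deviations were of mixed sign (-0.29 to 0.194), so a pairing by replicate number was neither shown nor excluded. With the replicate block, genes called were 3602 in the first comparison, 0 in the second and 0 in the third, and 14 carriers were lower and 2 higher in the first and 0 in the others. No single ratio test could pass after adjustment, so these say nothing of stability. The cause of these shifts was not tested. Values from 3 or 4 libraries of unknown depth limit what could be called.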
